A study of Mus musculus with 6 samples.

Results

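The genes described here encode the troponin and tropomyosin isoforms of skeletal muscle, namely Tnnt1, Tnnt3, Tnni1, Tnni2, Tnnc1, Tnnc2, Tpm1, Tpm2 and Tpm3. Their members on the array are all 21 probe sets, groups of short probes for a transcript, to which the platform annotation gives 1 of these 9 symbols and no other. They come from 45101 probe sets in all, of which 34958 carry a single symbol and cover 18194 genes. Expression was measured in 3 OVX + E2 samples and 3 OVX samples, each on 1 Affymetrix mouse genome array. All samples came from female C57BL/6 mice ovariectomized at 4 months of age. The OVX + E2 mice then carried a pellet releasing 0.18 mg of 17β-estradiol (E2) over 60 days, and the OVX mice a placebo pellet for the same time. Both groups were thus ovariectomized, and no ovary-intact mice were among these samples. The sources used here do not say whether the arrays came from different mice, so the p-values measure only how far these samples spread, which may be technical.

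Troponin and tropomyosin sit on the actin filament and make contraction depend on calcium. Troponin C binds calcium, troponin I holds the filament in the inhibited state, troponin T ties the complex to tropomyosin, and tropomyosin covers the sites at which myosin binds actin. Slow (type I) and fast (type II) fibres use different genes for each subunit. Tnnt1, Tnni1 and Tnnc1 are the slow forms and Tnnt3, Tnni2 and Tnnc2 the fast forms. Tnnc1 also serves the heart. Tpm3 gives the slow alpha-tropomyosin, Tpm1 the fast alpha-tropomyosin and Tpm2 the beta-tropomyosin found in both fibre types, and all of the tropomyosin genes also make forms used outside muscle. In the RefSeq order of protein-coding genes of GRCm38.p6, Tnni2 and Tnnt3 lie on chromosome 7 with only Lsp1 between them. Tnnt1 lies next to the cardiac troponin I gene Tnni3 on the same chromosome. On chromosome 1, Lad1 is the one protein-coding gene between Tnni1 and the cardiac troponin T gene Tnnt2.

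No troponin or tropomyosin probe set differed between OVX + E2 and OVX at the threshold of the study's methods, an unadjusted limma p of 0.001 or less, which 0.213% of all probe sets passed. At the looser unadjusted limma p under 0.05, 6 of the 21 members were lower in OVX + E2, namely both bright Tnni2 probe sets, Tnnc2, a pair of Tpm1 probe sets and 1 of Tpm2, where 9.43% of all probe sets were lower and 4.35% higher. No member was higher at that level. These calls depended on the scaling. After quantile normalization or cyclic loess 0 members passed, and over all probe sets 1500 were lower and 2010 higher after the first and 1812 lower and 1612 higher after the second, against 4255 lower and 1961 higher as deposited. After median centring 7 members were lower, and over all probe sets 5574 were lower and 1021 higher. The smallest adjusted p of any of the 21 was 0.330, and the smallest over all 45101 probe sets was 0.308 (limma, Benjamini-Hochberg). The fast troponins were highest on OVX replicate 3, while the slow troponins were lowest on the same array. As these are whole-tissue samples, fewer fibres of a type and less RNA per fibre cannot be told apart.

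The values are log2 signals in arbitrary units, and differences are OVX + E2 minus OVX unless stated otherwise. The array medians ranged between 6.92 and 6.93 in OVX + E2 and between 6.90 and 6.92 in OVX, and the SD across the values of an array between 1.14 and 1.16 in OVX + E2 and between 1.20 and 1.22 in OVX. Of the 21 members, 16 lay in the top 5% of probe sets by their mean over all arrays, and 14 had a mean of 12 or more. The highest value on any array was between 14.04 and 14.18 in OVX + E2 and between 14.06 and 14.19 in OVX, so the brightest members lay near the top of the scale, where differences between arrays are hard to see. In the names of probe sets, a_at marks one that detects several transcripts of a gene, and x_at, borne by 3 members, one with probes that can also match other genes. The labels of the samples give left ventricle, whereas the study's text gives soleus, a hindlimb muscle of slow and fast fibres. None of 8 heart markers lay in the top 5%, against 9 of 9 fast fibre markers. The slow fibre markers lay there too (7 of 7). Heart muscle also uses several of these, such as Myl2, Myl3 and Atp2a2, so they do not separate the tissues. The cardiac actin gene Actc1, which is not among the 8, lay at percentile 95.7. Cardiac troponin I, Tnni3, lay at percentile 29.8 of all probe sets, the brightest probe set of cardiac troponin T, Tnnt2, at percentile 76.9 and Myh6, the cardiac alpha myosin heavy chain, at percentile 66.1.

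Promoter sequence was matched for 7 of the 9 genes, from RefSeq on GRCm38.p6, and is shown for 4 genes with all or most of their probe sets lowest on OVX replicate 3 (Tnnt1, Tnni1 and Tnnc1 with 1 of 1 each, Tpm3 with 4 of 5) and 2 with all or most highest there (Tnnc2 with 1 of 1, Tpm1 with 3 of 4). Each window holds the 250 bases before an annotated transcription start, read 5′ to 3′ on the gene's strand, and the capitals mark matches to the E-box CANNTG, the motif of the MyoD family of muscle transcription factors. For Tnni1 and Tpm3, which have further starts in the table, the first is shown.
Tnnt1, slow troponin T, chr7:4515976-4516225, minus strand: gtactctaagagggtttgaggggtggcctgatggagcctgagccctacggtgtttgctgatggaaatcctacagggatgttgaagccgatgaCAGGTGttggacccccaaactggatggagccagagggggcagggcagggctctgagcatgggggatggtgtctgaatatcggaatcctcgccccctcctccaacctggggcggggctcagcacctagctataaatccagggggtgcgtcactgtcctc
Tnni1, slow troponin I, chr1:135799171-135799420, plus strand: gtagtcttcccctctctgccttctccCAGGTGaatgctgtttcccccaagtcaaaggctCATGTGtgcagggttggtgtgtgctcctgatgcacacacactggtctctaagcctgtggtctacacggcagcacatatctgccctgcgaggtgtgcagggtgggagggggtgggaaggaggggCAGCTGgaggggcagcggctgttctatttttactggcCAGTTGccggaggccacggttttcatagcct
Tnnc1, slow troponin C, chr14:31208062-31208311, plus strand: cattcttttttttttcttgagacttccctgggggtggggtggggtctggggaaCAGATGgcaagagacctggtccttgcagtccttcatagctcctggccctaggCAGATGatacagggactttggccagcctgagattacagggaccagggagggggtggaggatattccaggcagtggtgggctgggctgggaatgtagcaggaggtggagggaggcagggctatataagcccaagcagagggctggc
Tpm3, slow alpha-tropomyosin, chr3:90072401-90072650, plus strand: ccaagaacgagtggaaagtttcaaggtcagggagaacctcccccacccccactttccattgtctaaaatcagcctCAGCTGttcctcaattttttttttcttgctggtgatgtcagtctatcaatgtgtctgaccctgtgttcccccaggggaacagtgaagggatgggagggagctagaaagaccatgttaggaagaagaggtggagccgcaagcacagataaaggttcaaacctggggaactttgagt
Tnnc2, fast troponin C, chr2:164779735-164779984, minus strand: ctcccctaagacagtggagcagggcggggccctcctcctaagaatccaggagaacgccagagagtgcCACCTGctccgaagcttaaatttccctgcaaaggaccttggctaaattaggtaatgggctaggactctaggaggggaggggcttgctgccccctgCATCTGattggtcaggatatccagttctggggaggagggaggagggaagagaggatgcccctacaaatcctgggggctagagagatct
Tpm1, fast alpha-tropomyosin, chr9:67049214-67049463, minus strand: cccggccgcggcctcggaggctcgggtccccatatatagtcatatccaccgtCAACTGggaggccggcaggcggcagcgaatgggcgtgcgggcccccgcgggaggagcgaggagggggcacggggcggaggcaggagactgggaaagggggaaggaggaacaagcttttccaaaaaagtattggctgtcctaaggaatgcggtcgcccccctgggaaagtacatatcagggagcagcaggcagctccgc

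Every one of these windows held an E-box on either strand, as did 66.2% of the 32851 windows of all genes. The Tnni1 window held 4, beginning 224, 191, 68 and 31 bases before the start, Tnnc1 held 2 (197 and 145) and Tnnc2 held 2 (183 and 88). Tnnt1 had 1 at 158, Tpm3 1 at 175 and Tpm1 1 at 198. CATTCC, the core of the MCAT element, was sought on both strands and was matched in Tnnc1 at 58 bases and in Tpm1 at 56 bases before the start, and in 12.6% of all windows. TATAAA on the gene's strand was matched in Tnnt1 at 30 bases and in 7.59% of all windows. The estrogen response half-site GGTCA was matched on either strand in Tnnc2 at 79 bases and in Tpm3 at 226 and 120 bases, and in 35.2% of all windows. The full estrogen response element, the MEF2 site and the CArG box were not matched in these 6 windows and were matched in 0.0639%, 2.92% and 1.47% of all windows, and no matches of different motifs overlapped in the windows shown. The slow and fast genes shown shared the E-box and were not separated by it, and a match describes letters only.

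The 3 slow troponin probe sets varied little between groups. Values are given in the order of replicates 1, 2 and 3 of each group. Tnnt1 measured 13.73, 13.63 and 13.67 in OVX + E2, against 13.73, 13.85 and 13.39 in OVX. The OVX arrays held both the highest and the lowest value, and the OVX + E2 arrays fell between them. The difference was 0.02 ± 0.11 (SE), with an adjusted limma p of 0.945 and a 95% interval of −0.24 to 0.28. Tnni1 measured 13.33, 13.23 and 13.26 in OVX + E2, against 13.45, 13.45 and 12.99 in OVX. OVX replicate 3 lay below all 3 OVX + E2 arrays and the other OVX arrays above them. Its difference was −0.03 ± 0.12 (SE), with an adjusted limma p of 0.931 and a 95% interval of −0.31 to 0.26. Tnnc1 measured 13.63, 13.52 and 13.51 in OVX + E2, against 13.68, 13.66 and 13.35 in OVX. The order was the same, with OVX replicate 3 lowest and the groups overlapping. Its difference was −0.01 ± 0.090 (SE), with an adjusted limma p of 0.965 and a 95% interval of −0.22 to 0.20. The SD within the groups was 0.0486 in OVX + E2 and 0.236 in OVX for Tnnt1, 0.0509 in OVX + E2 and 0.267 in OVX for Tnni1, and 0.0649 in OVX + E2 and 0.184 in OVX for Tnnc1 (n = 3 each).

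All 5 fast troponin probe sets had differences below 0, with a median of −0.18. Tnnt3, the fast troponin T, measured 13.39, 13.25 and 13.01 in OVX + E2, against 13.41, 13.36 and 13.59 in OVX. OVX + E2 replicate 3 was lowest and OVX replicate 3 highest, and OVX + E2 replicate 1 lay within the OVX values. The difference was −0.24 ± 0.10 (SE), with an unadjusted p of 0.0515 and an adjusted p of 0.365 (limma), and −0.14 without OVX + E2 replicate 3. The brightest probe set of Tnni2, the fast troponin I (1416889_at), measured 13.74, 13.60 and 13.49 in OVX + E2, against 13.77, 13.74 and 13.91 in OVX. The same arrays held the extremes, and OVX + E2 replicate 1 lay just above the lowest OVX value. The difference was −0.20 ± 0.075 (SE), which passed at an unadjusted p of 0.0342 and not after adjustment, at 0.344 (limma). The second bright Tnni2 probe set, 1438609_x_at, differed by −0.15 (unadjusted p of 0.0394) and the dim one, 1438608_at, with a mean of 7.59 in OVX, by −0.18 (unadjusted p of 0.139, limma). Tnnc2, the fast troponin C, measured 13.88, 13.72 and 13.63 in OVX + E2, against 13.87, 13.89 and 13.93 in OVX. OVX + E2 replicates 2 and 3 were below every OVX array, and OVX + E2 replicate 1 fell among them. Its difference was −0.16 ± 0.066 (SE), with an unadjusted p of 0.0487 and an adjusted p of 0.362 (limma), and −0.099 without OVX + E2 replicate 3. At its highest it lay 0.13 below the top value of an array, so its differences may be compressed.

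**Figure D1:**
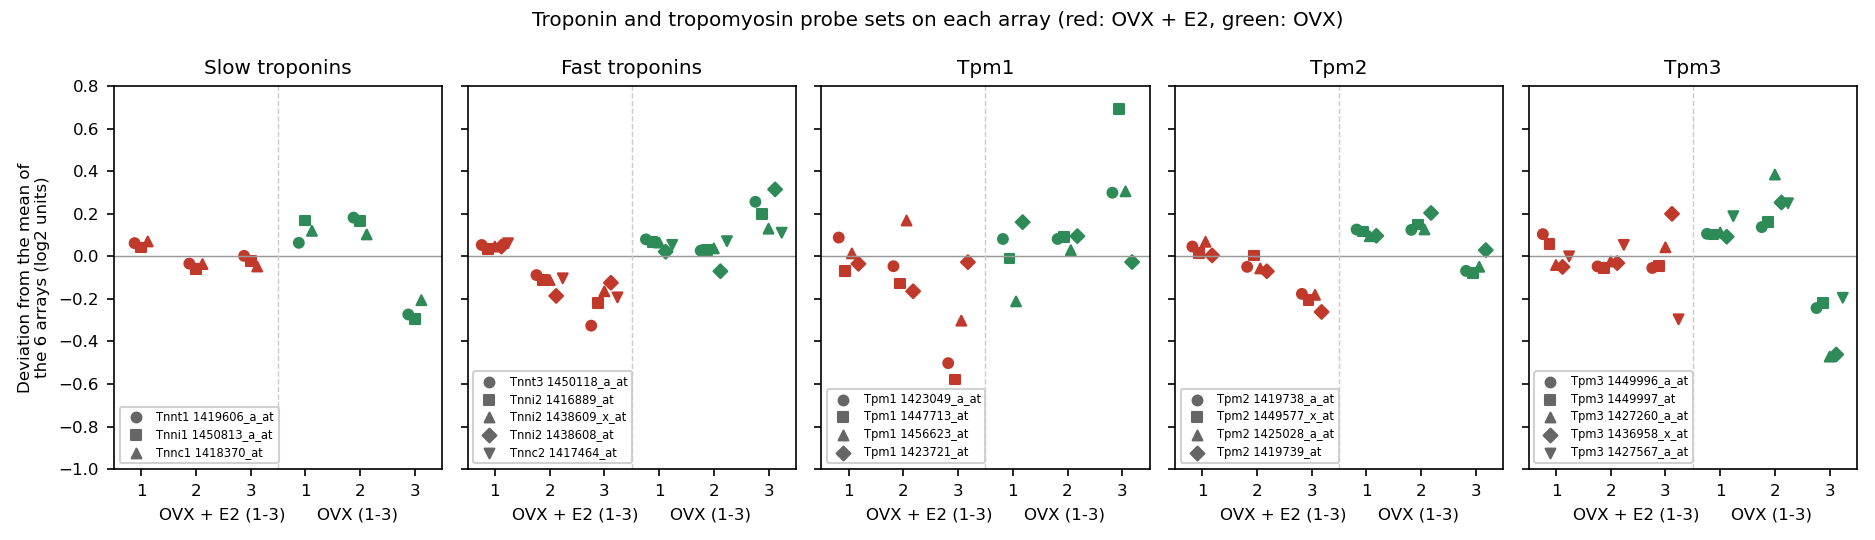
Deviation of each troponin and tropomyosin probe set from its own mean over the 6 arrays (vertical axis, log2 units) on each array (horizontal axis, replicates 1 to 3 of OVX + E2 in red, then of OVX in green), in panels for slow troponins, fast troponins, Tpm1, Tpm2 and Tpm3; each marker shape is a probe set. On OVX replicate 3 the slow troponins averaged −0.26 and the fast troponins 0.20.

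The slow and fast troponins parted on OVX replicate 3. All 5 fast troponin probe sets had their highest value there, and 4 of 5 had their lowest on OVX + E2 replicate 3, while all 3 slow troponin probe sets had their lowest on OVX replicate 3. Over all probe sets, 21.5% were highest on OVX replicate 3, 19.8% were lowest on it and 25.6% were lowest on OVX + E2 replicate 3, and among those with a mean of 12 or more the shares were 24%, 15.4% and 54.3%. As mean deviations from the mean of all arrays, the fast troponins stood at 0.05, −0.12 and −0.21 in OVX + E2 and at 0.06, 0.02 and 0.20 in OVX. The slow troponins stood at 0.06, −0.04 and −0.02 in OVX + E2 and at 0.12, 0.15 and −0.26 in OVX. The widest step of the fast troponins was between the arrays numbered 3, and the slow troponins set OVX replicate 3 apart from the other 5 arrays.

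Mean deviations of fibre type markers had their extremes on the same arrays. The 9 fast fibre markers, which include the type IIB myosin heavy chain Myh4 and the fast alpha-actinin Actn3, had mean deviations of 0.37, −0.21 and −1.64 in OVX + E2 and of 0.16, 0.33 and 0.998 in OVX. They put the arrays numbered 3 at the 2 extremes, as the fast troponins did. The fast fibre markers were uneven in size. Myh4 measured 13.35, 12.60 and 7.78 in OVX + E2, against 13.07, 13.23 and 13.90 in OVX. The range over the 6 arrays was 6.12 for Myh4, 4.27 for Mybpc2, 4.24 for Actn3 and 4.12 for Pvalb. It was 2.20 for Myoz1, 1.07 for Casq1, 0.77 for Mylpf, 0.55 for Atp2a1 and 0.40 for Myh1. The 7 slow fibre markers, which include the slow myosin heavy chain Myh7, had mean deviations of 0.06, −0.04 and 0.02 in OVX + E2 and of 0.09, 0.11 and −0.24 in OVX, with OVX replicate 3 the lowest. Of the fast fibre markers 1 of 9 was lower in OVX + E2 at an unadjusted limma p under 0.05, and of the slow fibre markers 1 of 7, where 9.43% of all probe sets and 36% of those with a mean of 12 or more were lower. The part of the fibre types in the troponin differences was not tested. Of the markers of other cell types, those of fibroblasts (5 of 5 measured) had mean deviations between −0.24 and 0.03 in OVX + E2 and between −0.08 and 0.38 in OVX, and 2 of 5 were lower in OVX + E2 at an unadjusted limma p under 0.05, against the same 9.43% of all probe sets. Fat markers (2 of 4 measured) ranged between −0.19 and 0.25 in OVX + E2 and between −0.77 and 0.74 in OVX, endothelial markers (4 of 4) between −0.12 and 0.07 in OVX + E2 and between −0.21 and 0.40 in OVX, and Mbp, the 1 of 3 Schwann cell markers measured, between −0.39 and 0.13 in OVX + E2 and between −0.72 and 0.66 in OVX. The means of fat, endothelial and Schwann cell markers and of the 8 heart markers (mean deviation of −0.12) were lowest on OVX replicate 3. The same held for the means of the slow troponins and Tpm3, and the part of these cell types in the result was not tested. Not every marker followed its mean. Pecam1 of the endothelial and Nppa, Nppb, Myl7 and Ryr2 of the heart markers were lowest on another array. Smooth muscle, macrophage and red cell markers did not have their lowest or highest mean there.

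Each slow gene was then set against its fast counterpart on the same array, as the slow minus the fast value, centred on the mean of the 6 arrays since probe sets of different genes have no common scale. For Tnnt1 minus Tnnt3 the centred values were 0.01, 0.05 and 0.33 in OVX + E2, against −0.02, 0.16 and −0.53 in OVX. OVX + E2 replicate 3 was highest and OVX replicate 3 lowest, and the remaining arrays of both groups overlapped. The difference between groups was 0.26 (exact permutation test, two-sided, p of 0.4, adjusted p of 0.8 over 4 pairs). For Tnnc1 minus Tnnc2 the centred values were 0.01, 0.07 and 0.14 in OVX + E2, against 0.07, 0.03 and −0.32 in OVX, a difference of 0.15 (exact permutation test, p of 0.4, adjusted p of 0.8). For Tnni1 minus Tnni2, with the Tnni2 probe set of the largest interquartile range, which is the dim one, the values were −0.00, 0.13 and 0.10 in OVX + E2, against 0.15, 0.24 and −0.61 in OVX, a difference of 0.15 (exact permutation test, p of 1). Again OVX replicate 3 lay apart below, and with this probe set the other OVX arrays were above all 3 OVX + E2 arrays. With the brightest Tnni2 probe set the values were 0.01, 0.05 and 0.20 in OVX + E2, against 0.10, 0.14 and −0.49 in OVX. OVX + E2 replicate 3 was then highest, and the difference was 0.17 (exact permutation test, p of 0.7). With the mean over all probe sets, OVX + E2 replicate 3 (0.15) lay between OVX replicates 1 (0.12) and 2 (0.17). With 3 arrays in each group there are 20 labelings, and the smallest p this design allows is 0.1.

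Tpm3 minus Tpm1, the slow against the fast alpha-tropomyosin, depended on the probe set. With the probe set of the largest interquartile range of each gene, the centred values were −0.01, −0.11 and 0.01 in OVX + E2, against 0.40, 0.22 and −0.50 in OVX, a difference of −0.08 (exact permutation test, p of 0.8, adjusted p of 1). With the brightest probe sets they were 0.02, −0.00 and 0.45 in OVX + E2, against 0.02, 0.06 and −0.54 in OVX, a difference of 0.31 (exact permutation test, p of 0.6), and with the mean over all probe sets of each gene the difference was 0.24. OVX replicate 3 was the lowest array in all 4 pairs under each of these rules. Without both arrays numbered 3 the 4 differences were −0.04 for Tnnt1 minus Tnnt3, −0.13 for Tnni1 minus Tnni2, −0.01 for Tnnc1 minus Tnnc2 and −0.37 for Tpm3 minus Tpm1, with 2 arrays left in each group. Tpm3 minus Tpm1 was then −0.03 with the brightest probe sets and −0.12 with the mean over all probe sets.

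**Figure D2:**
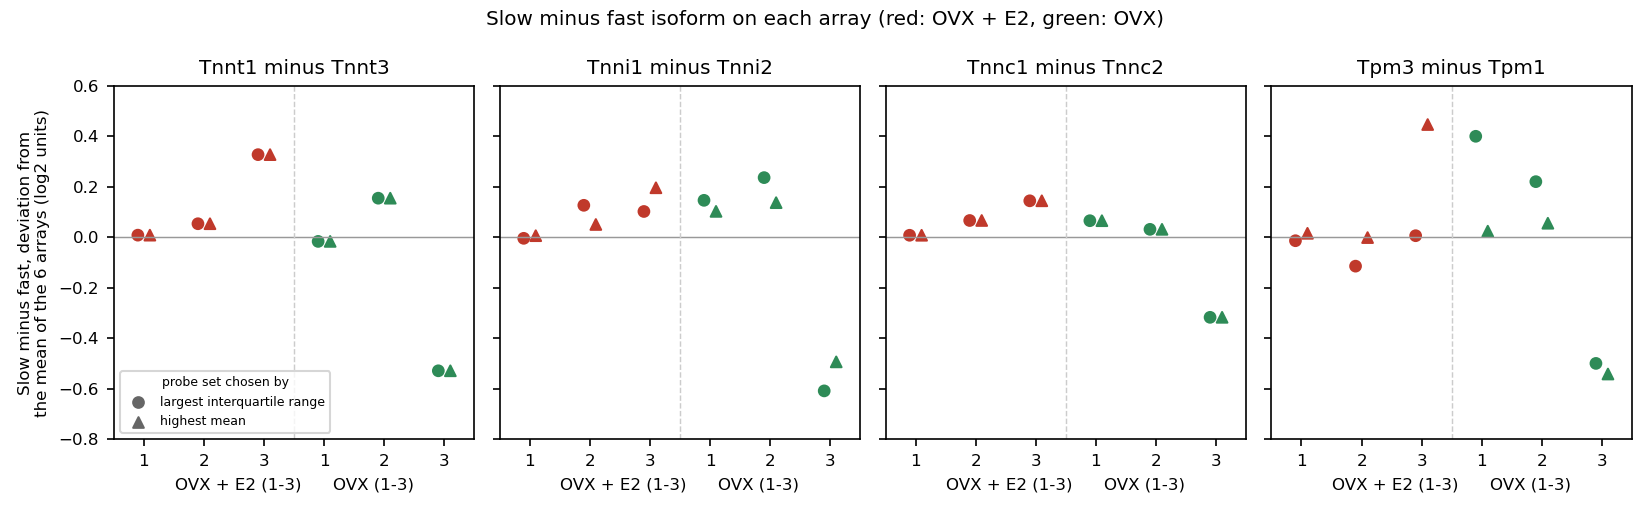
Slow minus fast isoform on each array as the deviation from the mean of the 6 arrays (vertical axis, log2 units) for 4 pairs (panels), with replicates 1 to 3 of OVX + E2 in red and then of OVX in green; circles use the probe set with the largest interquartile range and triangles the one with the highest mean. OVX replicate 3 is the lowest point of each panel, between −0.32 and −0.61 for the circles.

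Tpm1 had the widest differences among the members, and its 4 probe sets did not move alike. The probe set 1447713_at measured 9.90, 9.84 and 9.39 in OVX + E2, against 9.96, 10.06 and 10.66 in OVX. Every OVX + E2 array lay below every OVX array, and the arrays numbered 3 were −1.27 apart. Its difference was −0.52 ± 0.21 (SE), a ratio of 0.699 of OVX + E2 over OVX, with an unadjusted p of 0.0404 and an adjusted p of 0.352 (limma), and −0.30 without OVX replicate 3. The brightest Tpm1 probe set, 1423049_a_at, measured 13.84, 13.71 and 13.25 in OVX + E2, against 13.83, 13.83 and 14.05 in OVX. OVX + E2 replicate 1 fell among the OVX arrays, and OVX replicate 3 lay 0.01 below the top value of its array. Its difference was −0.31 ± 0.15 (SE), with an adjusted limma p of 0.398. It was −0.13 without OVX + E2 replicate 3 and −0.061 without both arrays numbered 3. The 2 dimmer probe sets parted. The probe set 1423721_at measured 7.63, 7.50 and 7.64 in OVX + E2, against 7.83, 7.76 and 7.64 in OVX, a difference of −0.15 (unadjusted p of 0.0444, limma) with no overlap of the groups, although both arrays numbered 3 were at 7.64. The probe set 1456623_at measured 8.01, 8.17 and 7.70 in OVX + E2, against 7.79, 8.03 and 8.31 in OVX, a difference of −0.08 (unadjusted p of 0.62, limma) with overlapping groups.

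Tpm2, the beta-tropomyosin, gave 4 probe sets with differences between −0.22 and −0.11, and all 4 were lowest on OVX + E2 replicate 3. The probe set 1419739_at measured 12.91, 12.84 and 12.64 in OVX + E2, against 13.00, 13.11 and 12.94 in OVX. The groups did not overlap, with OVX + E2 replicate 1 just below OVX replicate 3. Its difference was −0.22 ± 0.078 (SE), with an unadjusted p of 0.0255 and an adjusted p of 0.33, the smallest among the members (limma), and −0.14 without OVX + E2 replicate 3. The other Tpm2 probe sets differed by −0.12 (1419738_a_at), −0.12 (1449577_x_at) and −0.11 (1425028_a_at), with unadjusted limma p-values of 0.155, 0.175 and 0.173. In contrast with the fast troponins, OVX replicate 3 was the lowest OVX array for each of the Tpm2 probe sets. With a mean deviation of −0.04 on that array, Tpm2 stood between the slow troponins and the fast troponins.

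Tpm3, the slow alpha-tropomyosin, followed the slow troponins in which array was low. Of its 5 probe sets 4 were lowest on OVX replicate 3, and all 5 were highest on OVX replicate 2. The brightest, 1449996_a_at, measured 13.75, 13.60 and 13.59 in OVX + E2, against 13.75, 13.79 and 13.41 in OVX. The groups overlapped, and the difference was 0.00 ± 0.10 (SE), with an adjusted limma p of 0.998. The probe set 1427260_a_at, with the largest range, measured 10.47, 10.49 and 10.56 in OVX + E2, against 10.63, 10.90 and 10.04 in OVX. The 3 OVX + E2 arrays lay close together, between OVX replicate 3 and the other OVX arrays. Its difference was −0.02 ± 0.19 (SE), with an adjusted limma p of 0.974. The remaining probe sets differed by −0.03 (1449997_at), 0.08 (1436958_x_at) and −0.16 (1427567_a_at), with adjusted limma p-values of 0.903, 0.853 and 0.599. The last of these was the one Tpm3 probe set whose lowest value was on OVX + E2 replicate 3.

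Over the 21 members, 18 differences lay below 0 and 3 above, with a median of −0.12, where the median of all probe sets was −0.00. The members are bright, and bright probe sets as a whole were lower. Of the 350 probe sets with a mean of 12 or more, 319 had a difference below 0, with a median of −0.12 as well. After quantile normalization and after cyclic loess the members split into 11 below 0 and 10 above, with medians of −0.024 and −0.0080, and 145 and 138 of the 350 bright probe sets lay below 0. Of the 14 members of that brightness, 4 were lower at an unadjusted limma p under 0.05, against 36% of the 350. The groups did not overlap, with every OVX + E2 array lower, in 3 of 21 members (2 of Tpm1 and 1 of Tpm2), against 11.4% of all probe sets. Of these 3 only the Tpm2 probe set had a mean of 12 or more, where 133 of the 350 did not overlap. Among bright probe sets, the members' counts were thus not above the share of the 350. By class, 3 of 5 fast troponin probe sets, none of 3 slow troponin probe sets, 2 of 4 of Tpm1, 1 of 4 of Tpm2 and none of 5 of Tpm3 were lower at an unadjusted limma p under 0.05. The shares were 9.43% of all probe sets and 36% of the 350 bright ones. Of the 3 fast ones, 2 were probe sets of the same gene, Tnni2, and the other was that of Tnnc2. Whether the classes differed from each other in their response to E2 was tested only as the 4 slow minus fast pairs above.

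**Figure D3:**
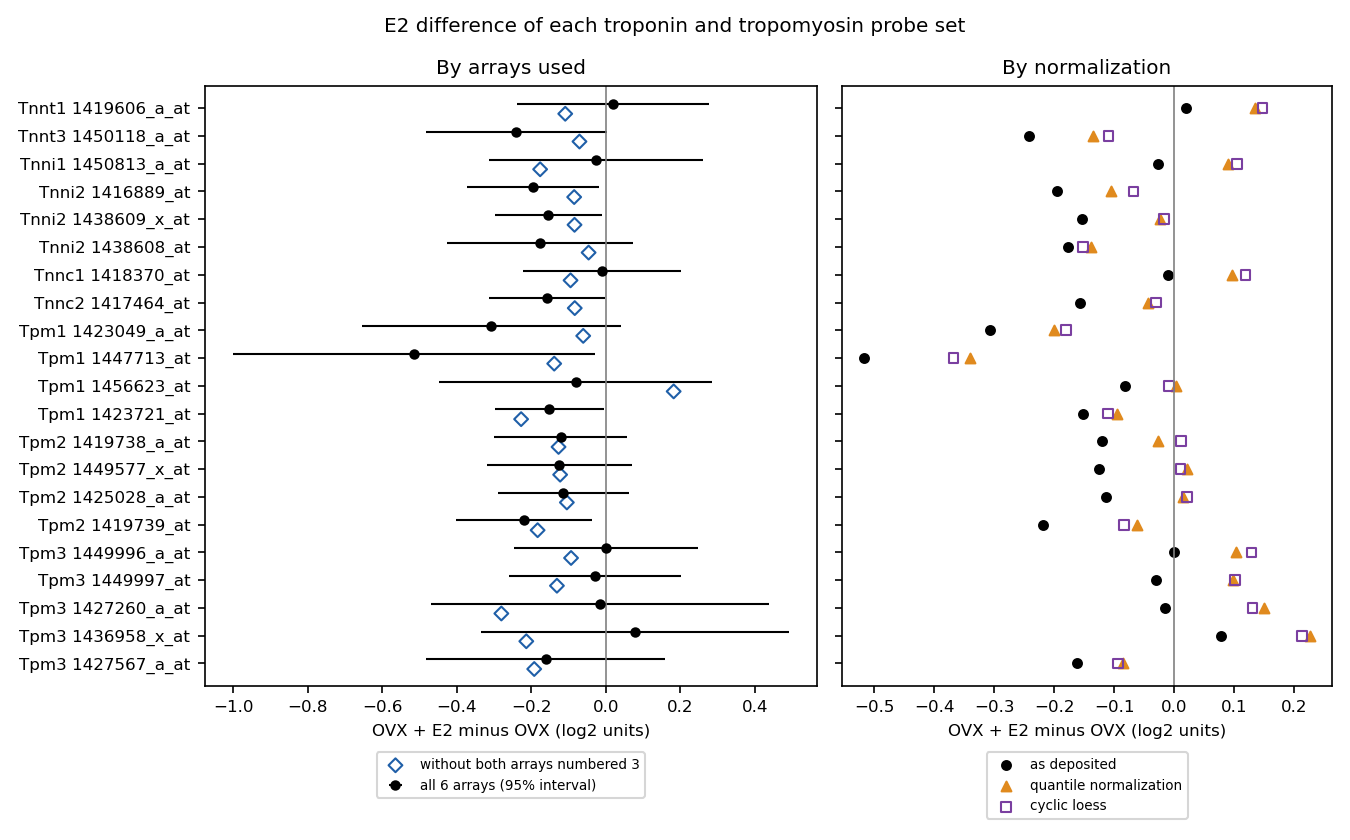
Difference OVX + E2 minus OVX (horizontal axis, log2 units) of each of the 21 probe sets (rows); left, over all 6 arrays (circles, with 95% limma intervals) and without both arrays numbered 3 (diamonds); right, as deposited (circles), after quantile normalization (triangles) and after cyclic loess (squares). The leftmost circle is Tpm1 1447713_at at −0.52, and its diamond is at −0.14.

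Since the arrays numbered 3 held most extremes, the comparison was repeated without both, a choice made after seeing the data. Then 20 of 21 members were below 0, with a median of −0.11, and 7 were lower at an unadjusted limma p under 0.05, against 7.54% of all probe sets. Of the 14 bright members 3 were lower, against 29.1% of the 350 bright probe sets, of which 336 were below 0, with a median of −0.12. Of the 7 members, 2 (Tpm1 1423721_at and Tpm2 1419739_at) were also among the 6 found with all arrays. The 7 were Tnni1, 3 of Tpm3, 2 of Tpm2 and 1 of Tpm1. Tnni1 differed by −0.18 (unadjusted p of 0.0181), Tpm3 1427260_a_at by −0.28 (0.0207) and Tpm3 1436958_x_at by −0.21 (0.0171) in that limma fit, while Tnnt3 stood at −0.07, Tnni2 1416889_at at −0.08, Tnnc2 at −0.08 and Tpm1 1447713_at at −0.14. The groups, now of 2 arrays each, did not overlap in 14 members, against 22.8% of all probe sets, comprising all 3 slow troponin probe sets, all 5 of Tpm3, all 4 of Tpm2 and 2 of Tpm1, and none of the 5 fast troponin probe sets. Of the 14 bright members 9 did not overlap, against 67.7% of the 350 bright probe sets. After quantile normalization or cyclic loess of all 6 arrays, which brought the median of the 350 bright probe sets to 0.01 and 0.02, 0 members passed at an unadjusted limma p under 0.05. The 5 fast troponin probe sets stayed below 0 and the 3 slow troponin probe sets stood above 0 under both, with medians of −0.11 and −0.07 for the fast and of 0.10 and 0.12 for the slow forms.

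The rest of the thin filament was measured by 38 probe sets of 20 genes, among them the actins, nebulin, leiomodins, tropomodulins, capping proteins and the cardiac or non-muscle forms Tnnt2, Tnni3 and Tpm4. Their differences were below 0 in 25 and above in 13, with a median of −0.07, and 6 were lower and 1 higher at an unadjusted limma p under 0.05, none after adjustment, where 9.43% of all probe sets were lower and 4.35% higher. The smallest p belonged to Capza1, a subunit of the capping protein that seals the barbed end of actin, which measured 8.61, 8.71 and 8.58 in OVX + E2, against 8.84, 8.81 and 8.79 in OVX. No array of either group reached into the other, and the difference was −0.18 ± 0.044 (SE), with an adjusted limma p of 0.308. Kbtbd13, a muscle ubiquitin ligase adaptor, differed by −0.24, Capzb, the other capping protein subunit, by −0.26 and Tmod4, the tropomodulin that caps pointed ends in skeletal muscle, by −0.33, with adjusted limma p-values of 0.308, 0.31 and 0.316. These are the probe sets of smallest p, and the others of these genes, none with an unadjusted limma p under 0.05, differed by 0.04 for Capza1, by −0.03 for Kbtbd13 and by −0.35, −0.23 and 0.01 for Capzb. After quantile normalization the named probe sets differed by −0.042 for Capza1, −0.14 for Kbtbd13, −0.10 for Capzb and −0.17 for Tmod4. The lowest Tmod4 value was that of OVX + E2 replicate 3 (11.40) and the highest that of OVX replicate 3 (12.05), the order seen for Tnnt3. Of the isoforms other than the 9 members, Tpm4 differed by −0.04, Tnni3 by 0.03 and the brightest probe set of Tnnt2 by 0.14, with adjusted limma p-values of 0.884, 0.774 and 0.726. That Tnnt2 probe set measured 8.0, 7.61 and 7.91 in OVX + E2, against 7.96, 7.81 and 7.32 in OVX, with OVX replicate 3 the lowest, as for the slow troponins.

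For 4 members the genes of closest profile were sought, by the root mean square distance over the 6 arrays after centring each probe set on its mean, as a description over 6 arrays that share their groups and scaling. Closest to Tnnt3 were Eef2k (0.0194 log2 units), Exoc7 (0.0199), Atp2a1 (0.0231), Eif2s2 (0.0247) and Naa15 (0.0249), of which Atp2a1 is the calcium pump of fast fibres and one of the fast fibre markers. Closest to Tnni1 were Slc12a4 (0.0313), Galnt15 (0.0353), Ech1 (0.0366), Kcna1 (0.0382) and Reln (0.039). Closest to Tpm1 1447713_at were Selenow (0.0307), Cpeb1 (0.0507), Ppp3ca (0.0592), Pdlim7 (0.0596) and Tpi1 (0.0625), where Ppp3ca is a catalytic subunit of calcineurin and Tpi1 a glycolytic enzyme. Selenow deviated by −0.02, −0.14 and −0.59 in OVX + E2 and by 0.02, 0.05 and 0.69 in OVX, a spread of 1.28, against 1.27 for Tpm1 1447713_at. Closest to Tpm3 1427260_a_at were Fabp5 (0.0566), Tjp1 (0.0698), Fabp4 (0.0712), Tspan13 (0.0719) and St8sia4 (0.0724). Fabp4, the fatty acid binding protein of fat cells and endothelium and one of the fat markers, deviated by −0.01, −0.08 and 0.13 in OVX + E2 and by 0.17, 0.26 and −0.48 in OVX.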

How the data were processed

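RNA of 3 OVX + E2 and 3 OVX samples was hybridized to 1 Affymetrix array each. The deposited values are log2 signals, which the authors made in R 2.14.2 by background correction, variance stabilization and normalization, and median polish over the probes of a set, and all steps here start from them. Samples were grouped by their treatment label. Probe sets were named from the platform annotation, of which 932 carry several symbols and 9211 none, and none was named from these. All 45101 probe sets, including 64 controls, were fitted with limma 3.58.1 (lmFit and eBayes, under R 4.3.3, OVX + E2 minus OVX, two-sided, no covariate), with Benjamini-Hochberg adjustment over all of them. The self-test of the fit was run on simulated data. Slow minus fast values were compared by exact permutation over the 20 labelings. All 21 members were brighter than the median probe set, so a filter at the median removes none.

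The genes named are the 9 members with all their probe sets, the 4 thin filament genes of smallest p with Tnnt2, Tnni3 and Tpm4, the fibre and cell type markers, and the 5 genes closest in profile to each of 4 members. The members, lists and rule were chosen with earlier results of these data known. Alternatives tried were cyclic loess (3 iterations), quantile normalization, median centring, a filter on dim probe sets, an intensity trend of the variance, the replicate number as a block, other rules for the probe set of a gene, and leaving out each array. Leaving out both arrays numbered 3 was added after seeing the data. Arrays have no read depth, and their number limits the precision. The position of the probes within the genes was not used here.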

Additional observations from a re-analysis of the deposited data

How the results depend on the processing

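The count of members at an unadjusted limma p under 0.05 was 6. It became 0 after quantile normalization, 0 after cyclic loess and 7 after median centring. With only probe sets brighter than the median in the fit the count was 3. It was 1 when replicate 2 or 3 of OVX + E2 or replicate 1 of OVX was left out, 8 without OVX replicate 3, and between 1 and 8 over all single arrays left out. The count in the thin filament list, which was 7, became 1 after quantile normalization, 2 after cyclic loess and 2 without both arrays numbered 3, and lay between 4 and 8 with single arrays left out. No member passed 0.001 under any of these. For the brightness filter and the single arrays left out, the shares over all probe sets were not counted. Whether those counts moved with all probe sets was thus not tested.

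Of the member differences, 38 recomputed values had the other sign and 235 did not, the 38 being those of members with unadjusted limma p-values above 0.15. The 235 include 21 values each from the replicate block, the intensity trend of the variance and the brightness filter. Those settings leave the differences as they are, so no sign could change under them. Quantile normalization gave 0.090 for Tnni1, 0.10 for Tnnc1, 0.0041 for Tpm1 1456623_at, 0.021 for Tpm2 1449577_x_at, 0.016 for Tpm2 1425028_a_at, 0.098 for Tpm3 1449997_at and 0.15 for Tpm3 1427260_a_at. Cyclic loess gave 0.11 for Tnni1, 0.12 for Tnnc1, 0.012 for Tpm2 1419738_a_at, 0.011 for Tpm2 1449577_x_at, 0.021 for Tpm2 1425028_a_at, 0.10 for Tpm3 1449997_at and 0.13 for Tpm3 1427260_a_at. Median centring gave −0.016 for Tpm3 1449996_a_at. Without both arrays numbered 3 the differences were −0.11 for Tnnt1, 0.18 for Tpm1 1456623_at, −0.093 for Tpm3 1449996_a_at and −0.21 for Tpm3 1436958_x_at, and the pairs were −0.038 for Tnnt1 minus Tnnt3, −0.13 for Tnni1 minus Tnni2 and −0.011 for Tnnc1 minus Tnnc2. Tpm3 minus Tpm1 was 0.31 with the probe set of the highest mean and 0.24 with the mean over all probe sets. With single arrays left out, the ranges were −0.11 to 0.11 for Tnnt1, −0.18 to 0.051 for Tnni1, −0.12 to 0.047 for Tnnc1, −0.21 to 0.051 for Tpm1 1456623_at, −0.12 to 0.069 for Tpm3 1449996_a_at, −0.15 to 0.044 for Tpm3 1449997_at, −0.26 to 0.17 for Tpm3 1427260_a_at, −0.13 to 0.22 for Tpm3 1436958_x_at, −0.12 to 0.31 for Tnni1 minus Tnni2 and −0.35 to 0.099 for Tpm3 minus Tpm1. The causes were not tested.

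Same-numbered arrays did not deviate alike from their group means, with correlations of −0.125, −0.2 and −0.342 for replicates 1, 2 and 3. These values cannot show whether the replicate numbers pair the samples, and the sources do not say. With the replicate block, which leaves the differences as they are, 4 members and 8 thin filament probe sets passed at an unadjusted limma p under 0.05. The share of all probe sets passing with the block was not counted, so these counts cannot be set against it. Of the 6 members 5 were lost (both Tnni2, Tnnc2 and both Tpm1), Tpm2 1419739_at was shared, and 3 were added (Tpm2 1419738_a_at, Tpm2 1449577_x_at and Tpm3 1427567_a_at). For the pair value of 0.26, Tnnt1 minus Tnnt3, and for Tnnc1 minus Tnnc2 the exact permutation p within blocks was 0.75, where the smallest possible is 0.25. The brightness of most members, near the top of the scale, and the 3 arrays in each group limit what differences these data can show.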
